A study of Rattus norvegicus with 10 samples.

Results

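Retinoic acid, the active form of vitamin A, is made, bound and sensed by a small set of proteins, and 8 of their genes were followed in the fetal rat kidney. They are Rdh10, Aldh1a1 and Aldh1a2 (synthesis), Crabp1 and Crabp2 (binding in the cytoplasm), and Rara, Rarb and Rxra (nuclear receptors). They were chosen by name from the platform's probe annotation, and are 8 of the 10412 genes with a symbol of their own there. They were measured by 9 probe sets, 2 of them for Rdh10 and 1 for each other gene.

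Total RNA of 10 kidney samples was hybridised to 1 Affymetrix array each, and a MAS5 signal, a linear brightness per probe set, was deposited for each. The hyperinsulinemic group (5 arrays, replicates 6 to 10) came from growth-restricted fetuses whose Wistar mothers, of 200 to 280 g and on a normal diet, had received a 2 mm piece of a slow-release insulin implant under the skin, placed 1 week before mating and again 1 week after it. The normal group (5 arrays, replicates 1 to 5) came from fetuses of mothers on a regular diet, for which the labels state no strain and no sham implant. Both groups were taken on day 22 of gestation and no genetic change was named. The labels give no litter, mother, sex or batch for a sample, so p-values measure only the spread between these samples, part of which may be technical, and littermates would make them too small.

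Retinol enters the cell and is oxidised by Rdh10 to retinal, which the Aldh1a enzymes turn into retinoic acid. Crabp2 carries retinoic acid to its receptors in the nucleus, while Crabp1 holds it in the cytoplasm and is linked to its breakdown by Cyp26 enzymes. The receptors Rara and Rarb bind DNA as pairs with Rxra, and in the mouse embryonic kidney Aldh1a2, Rara and Rarb act in the stroma, from where retinoic acid signalling keeps the receptor gene Ret on in the branching ureteric bud.

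The classic binding site of these receptor pairs is a DR5 element, a direct repeat of a 6-base half-site with a 5-base spacer. The promoter windows of RefSeq (build GRCr8) run from 250 bases before to 50 bases after an annotated start, which can lie inside the gene. They were searched on both strands for DR5 elements with any 5 bases between the half-sites. Both half-sites had to read AGGTCA or AGTTCA, with either A or G at the first base. Windows were matched for 7 of the 8 genes, and 1 held a DR5, that of Rarb. Of 50 other retinoid pathway genes with a window, 1 held one, Cyp26a1, whose enzyme clears retinoic acid. Both genes are known targets of retinoic acid in mouse and human, and their windows are shown because they are the places in this gene set where a receptor's binding letters lie beside a gene that was measured. Over all 33469 windows the share with a DR5 was 0.382%. The same half-sites spaced by 2 bases or 1 base, called DR2 and DR1, were in 0.170% and 0.233% of windows and in 0 of the 7.

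The Rarb window lies at chr15:11336142-11336441 on the plus strand, with the DR5 from 11336416 to 11336432, its first base 25 bases from the start used for the window. That start is inside the Rarb gene, which is annotated from 10837252 to 11482037, and is not the gene's first base. The Cyp26a1 window lies at chr1:244883572-244883871, also on the plus strand, with the DR5 read on the opposite strand from 244883730 to 244883746, its first base at -92. Capitals mark the element, half-sites and spacer together.
Rarb promoter: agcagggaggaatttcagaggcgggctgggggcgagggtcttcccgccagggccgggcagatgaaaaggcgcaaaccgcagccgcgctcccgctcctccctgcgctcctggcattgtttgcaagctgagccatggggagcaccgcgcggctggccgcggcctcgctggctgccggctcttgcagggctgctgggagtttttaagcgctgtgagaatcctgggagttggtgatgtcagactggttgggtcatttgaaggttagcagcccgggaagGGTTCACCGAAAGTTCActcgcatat
Cyp26a1 promoter: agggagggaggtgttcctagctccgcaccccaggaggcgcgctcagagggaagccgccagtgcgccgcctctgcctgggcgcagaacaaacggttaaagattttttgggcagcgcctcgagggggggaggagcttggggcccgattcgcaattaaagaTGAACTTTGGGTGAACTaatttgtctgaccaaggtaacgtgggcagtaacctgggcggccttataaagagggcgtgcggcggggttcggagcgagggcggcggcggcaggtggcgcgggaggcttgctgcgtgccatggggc
A match describes these letters and is no measure of binding, and a window without a match says only that these letters are not in it.

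The 10 arrays were alike. Their trimmed mean signal was 250 each, their median signals ran from 130 to 137, and the median correlation of an array with the others was 0.981 for hyperinsulinemic replicate 6 and 0.985 to 0.988 for the rest. Defining kidney genes were bright in both groups: the proximal tubule receptor gene Lrp2 averaged 2346 in hyperinsulinemic and 2292 in normal kidneys, the podocyte gene Nphs1 352 in hyperinsulinemic and 340.3 in normal kidneys, and the collecting duct water channel gene Aqp2 1756 in hyperinsulinemic and 1299 in normal kidneys. The groups did not overlap for Aqp2, at 1574 to 1957 in hyperinsulinemic and 1015 to 1553 in normal arrays (limma, unadjusted p = 0.00118, adjusted p = 0.540). The X-inactivation transcript Xist stood at 42.4 to 70.5 in hyperinsulinemic arrays and 0.8 to 2 in normal arrays (exact permutation p = 0.00794, and no split of 5 against 5 can reach a lower one), so insulin exposure and a difference in Xist, with whatever sex makeup lies behind it, cannot be told apart in any result below. Differences are hyperinsulinemic minus normal on a log2(signal + 16) scale, with the standard error after ±; means of signals carry the SD over 5 arrays. They were tested with limma over the 9601 probe sets bright enough on at least 5 arrays, and a call is a Benjamini-Hochberg adjusted p under 0.05.

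None of the 8 genes was called different between hyperinsulinemic and normal kidneys. Of the 9 probe sets 7, for 7 genes, were bright enough to be tested, 0 were called, 0 had an unadjusted p under 0.05 and for 0 the groups of arrays did not overlap. Over all tested probe sets these shares were 0.0104%, 5.36% and 1.04%, so a count of 0 in 7 is near the background. Of the 7, 5 were higher and 2 lower in hyperinsulinemic kidneys, with a median log2 difference of 0.06, against 0.00 over all probe sets, of which 50.9% were higher. The median size of the difference, whatever its sign, was 0.08 for the 7 and 0.06 for all. In bulk tissue, fewer cells of a type and less RNA per cell cannot be told apart, which holds for every value below.

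Rdh10, the retinol dehydrogenase of the first step, had signals of 200.5, 221, 213, 231 and 185 in hyperinsulinemic kidneys and 223, 217, 219.9, 217.5 and 231 in normal kidneys. Hyperinsulinemic replicate 10 was lowest, while replicate 9 reached the top of the normal range, so the groups overlapped. The means were 210.1 ± 18.1 in hyperinsulinemic and 222 ± 5.66 in normal kidneys, a log2 difference of -0.08 ± 0.07 (limma, adjusted p = 0.973). The 95% interval allows a fold of 0.856 to 1.05. Without hyperinsulinemic replicate 10 the log2 difference was -0.03. The second Rdh10 probe set was dim on every array, at 4.5 to 30.7 in hyperinsulinemic and 16.2 to 35.7 in normal kidneys, and differed by -0.22 ± 0.21 in a limma fit with no filter on dim signals (adjusted p = 0.988).

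Aldh1a1, one of the enzymes that make retinoic acid from retinal, had signals of 3064.5, 3032, 3129, 3103 and 3234 in hyperinsulinemic kidneys and 2966, 3153, 3142, 3263 and 3009 in normal kidneys. The hyperinsulinemic arrays all lay inside the normal range. The means were 3112 ± 77.2 in hyperinsulinemic and 3107 ± 119 in normal kidneys, a log2 difference of 0.00 ± 0.05 (limma, adjusted p = 0.998). This was the narrowest interval of the 9 probe sets, with a fold between 0.937 and 1.07. The lowest array, normal replicate 1, was also the one with signals of the adrenal steroid enzyme genes Hsd3b1 (218, against 6.3 at most on any other array), Cyp21a1 (195, against 34.4) and Cyp11b1 (156, against 19.6). Cyp11a1 was high there too (294.6, against 78.2). The adrenal markers Star (49.7, against 45.3) and Fdx1 (888, against 813.5) were only a little above the next array. Cyp17a1 (10, against 17.7) and Nr5a1 (1.1, against 1.4) were not raised. Without normal replicate 1 the log2 difference of Aldh1a1 was -0.01.

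Aldh1a2, the main retinoic acid enzyme of the embryo, had signals of 1729.6, 1919, 1749, 1946.5 and 2151.5 in hyperinsulinemic kidneys and 1734, 1855, 1841, 1778.5 and 1728 in normal kidneys. Hyperinsulinemic replicates 7, 9 and 10 lay above every normal array, and replicates 6 and 8 lay among the lower normal arrays. The means were 1899 ± 172 in hyperinsulinemic and 1787 ± 58.9 in normal kidneys, a log2 difference of 0.08 ± 0.06 (limma, adjusted p = 0.973), with a fold between 0.967 and 1.16. Without hyperinsulinemic replicate 10 the log2 difference was 0.04.

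**Figure D1:**
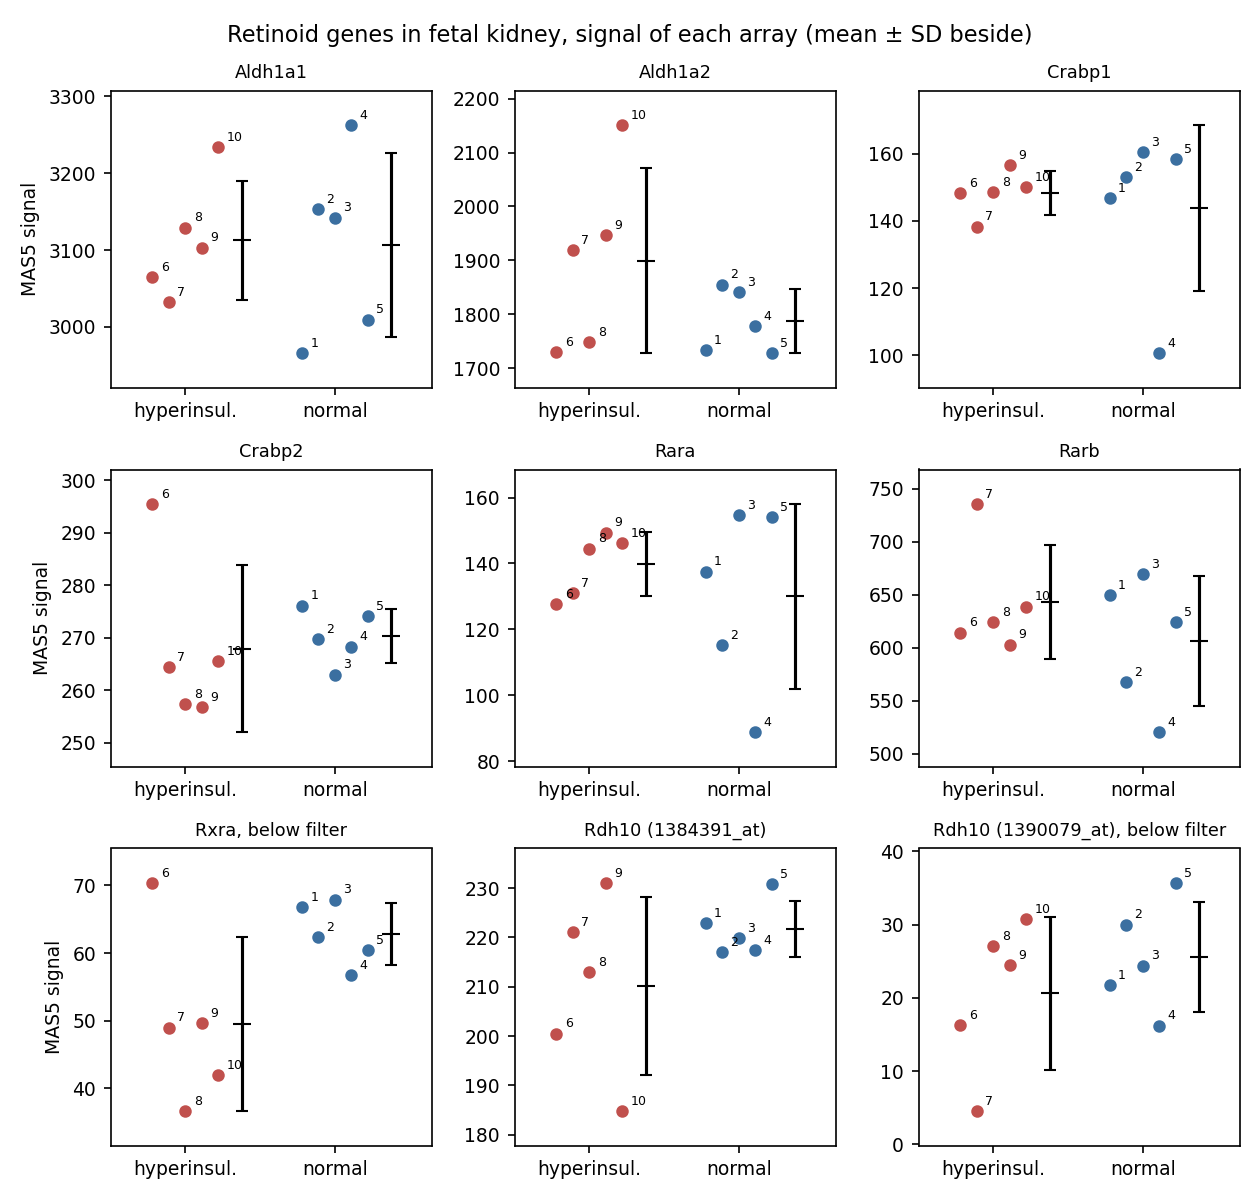
MAS5 signal (linear, with an axis of its own in each panel that does not start at 0) of the 9 probe sets of the 8 retinoid genes, 1 point per array with its replicate number, hyperinsulinemic arrays in red and normal arrays in blue, and the mean and SD of 5 arrays beside them. The groups overlap in all 9 panels; normal replicate 4 lies lowest for Crabp1, Rara and Rarb, and hyperinsulinemic replicates 6, 7 and 10 are the highest points for Crabp2, Rarb and Aldh1a2.

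The binding protein gene Crabp1 had signals of 148, 138, 149, 157 and 150.1 in hyperinsulinemic kidneys and 147, 153, 160.5, 101 and 158 in normal kidneys. All arrays lay between 138 and 160.5 but normal replicate 4. The means were 148 ± 6.56 in hyperinsulinemic and 144 ± 24.7 in normal kidneys, a log2 difference of 0.06 ± 0.11 (limma, adjusted p = 0.982), with a fold between 0.888 and 1.22. Without normal replicate 4 the log2 difference was -0.05.

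Crabp2, which hands retinoic acid to the receptors, had signals of 295.5, 264, 257, 257 and 266 in hyperinsulinemic kidneys and 276, 269.8, 263, 268 and 274 in normal kidneys. Hyperinsulinemic replicate 6 was the highest of all, and the other 4 hyperinsulinemic arrays lay at or below the lower part of the normal range. The means were 268 ± 15.9 in hyperinsulinemic and 270.3 ± 5.14 in normal kidneys, a log2 difference of -0.01 ± 0.06 (limma, adjusted p = 0.992), with a fold between 0.906 and 1.08. Without hyperinsulinemic replicate 6 the log2 difference was -0.05.

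Among the receptors, Rara had signals of 128, 131, 144.5, 149 and 146 in hyperinsulinemic kidneys and 137.5, 115, 155, 88.7 and 154 in normal kidneys. The hyperinsulinemic arrays lay inside the normal range, which normal replicate 4 widened at its lower end. The means were 139.8 ± 9.73 in hyperinsulinemic and 130.02 ± 28.1 in normal kidneys, a log2 difference of 0.11 ± 0.12 (limma, adjusted p = 0.973). The fold interval, 0.902 to 1.30, was the widest of the 7 tested, and without normal replicate 4 the log2 difference was 0.00.

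Rarb encodes a receptor, is a known target of retinoic acid in mouse and human, and has the DR5 match shown above. Its signals were 614, 736, 624, 603 and 639 in hyperinsulinemic kidneys and 649.6, 567.5, 669, 520.2 and 624 in normal kidneys. Hyperinsulinemic replicate 7 was highest and normal replicate 4 lowest, and the other arrays were mixed. The means were 643 ± 53.5 in hyperinsulinemic and 606 ± 61.4 in normal kidneys, a log2 difference of 0.09 ± 0.08 (limma, adjusted p = 0.973), with a fold between 0.947 and 1.19. The log2 difference was 0.04 without hyperinsulinemic replicate 7 and 0.03 without normal replicate 4.

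Rxra, the partner of the other receptors, was dim: its probe set stayed under the 40th percentile on all 10 arrays and was fitted without the filter. Its signals were 70.4, 49.0, 36.6, 49.7 and 42.0 in hyperinsulinemic kidneys and 66.8, 62.4, 67.9, 56.8 and 60.4 in normal kidneys. In 4 hyperinsulinemic arrays Rxra lay below every normal array, while replicate 6 lay above them all. The means were 49.5 ± 12.8 in hyperinsulinemic and 62.9 ± 4.58 in normal kidneys, a log2 difference of -0.29 ± 0.13, which did not pass (limma, unadjusted p = 0.0473, adjusted p = 0.949). In the fit without a filter 0.0315% of 15866 probe sets were called and 5.22% had an unadjusted p under 0.05. Without replicate 6 the log2 difference was -0.39 (limma, unadjusted p = 0.00322, adjusted p = 0.627). Replicate 6 held the most mRNA of the liver gene Alb. Without the array with the most Alb in each group the log2 difference was -0.42 (limma, unadjusted p = 0.00357, adjusted p = 0.517). With the stroma marker list described further on as a covariate it was -0.08 (limma, unadjusted p = 0.797, adjusted p = 0.989). The stroma values of the groups do not overlap, so that fit separates stroma from group poorly. The log2 difference was -0.41 with the liver list (limma, unadjusted p = 0.0229, adjusted p = 0.879). It was -0.21 without hyperinsulinemic replicate 8 (limma, unadjusted p = 0.125, adjusted p = 0.958).

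**Figure D2:**
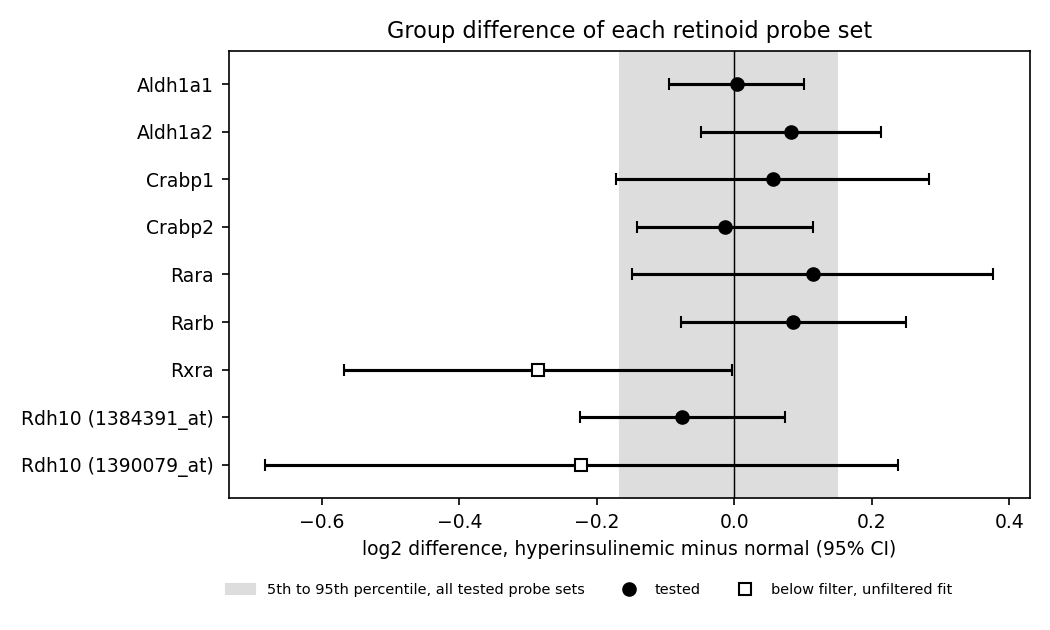
Log2 difference, hyperinsulinemic minus normal, with its 95% interval for each of the 9 retinoid probe sets; filled circles were tested over 9601 probe sets, open squares were below the filter and come from the fit over 15866, and the grey band spans the 5th to 95th percentile of all tested differences, -0.17 to 0.15. All 7 tested points lie inside the band with intervals across 0, and the open squares of Rxra (-0.29) and the second Rdh10 probe set (-0.22) lie outside it. The band leaves out dim probe sets such as those of the squares, so their place outside it does not mark them as unusual.

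Single arrays stood out in these genes. Normal replicate 4 was the lowest array for 3 of the 7 tested probe sets, at -0.47 for Crabp1, -0.51 for Rara and -0.25 for Rarb below the mean of the 10 arrays in log2 signal, and the highest for Aldh1a1. No other array was lowest for more than 1 of the 7. Hyperinsulinemic replicate 10 had the highest Aldh1a2, at 0.22 over the mean, beside the lowest Rdh10, at -0.21. Normal replicate 4 was also the normal array with the most Alb (842). Hyperinsulinemic replicate 6, with the most Alb of all (1742), was not low in the same way. Its log2 deviations were 0.03 for Crabp1, -0.06 for Rara and -0.02 for Rarb. With the liver list as a covariate in limma the log2 differences were 0.17 for Crabp1, 0.29 for Rara (unadjusted p = 0.0502) and 0.18 for Rarb (unadjusted p = 0.0591), each at least 2 times the value without it and none called. That covariate also gave 0.17 for Aldh1a2 (unadjusted p = 0.0267, adjusted p = 0.911). The liver value itself averaged 7.61 in hyperinsulinemic and 6.67 in normal kidneys. That fit therefore separates liver from group only in part, and the part of liver in these values was otherwise not tested.

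**Figure D3:**
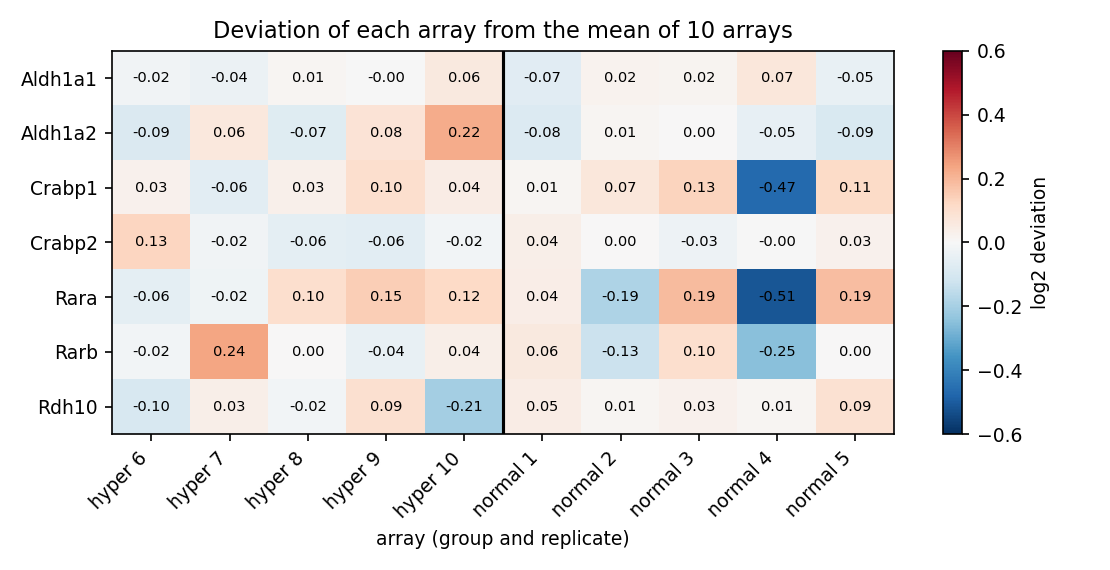
Deviation of each array from the mean of the 10 arrays in log2(signal + 16), for the 7 tested retinoid genes (down) and the 10 arrays (across), hyperinsulinemic arrays left of the line and normal arrays right of it. The deepest blue cells are Rara (-0.51) and Crabp1 (-0.47) in normal replicate 4.

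Across the 10 arrays, each of the 7 tested retinoid genes had other genes whose levels ran close to its own in the 7266 other genes tested. The closest by Pearson's r on log2 signals were Cep44 for Crabp1 (0.944), Ilrun for Aldh1a2 (0.941), Col9a1 for Crabp2 (0.939), Mrpl18 for Rdh10 (0.920), Zkscan5 for Rarb (0.904), Pdlim4 for Aldh1a1 (0.903) and Myg1 for Rara (0.901). The second closest were Lrpprc (0.914), Fam8a1 (0.934), Josd2 (0.922), Wipf1 (0.903), Prps1 (0.892), Tyw5 (0.869) and Exd2 (0.894) in the same order. These are the highest of 7266 values over 10 shared arrays, given as a description with no test, and between 16 and 47 genes had an r over 0.8 for each of the 7 tested retinoid genes.

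Around these 8 genes, 62 other genes of the retinoid pathway were named on the array and 37 passed the filter. Of the 37, 14 were higher and 23 lower in hyperinsulinemic kidneys, 0 were called and 4 had an unadjusted p under 0.05, with a median log2 difference of -0.02. Over all 7267 tested genes 51.5% were higher, 1 was called and 376 had an unadjusted p under 0.05, with a median of 0.00. The pathway lists were chosen with results of these data known and are described by counts alone.

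In the list of uptake, storage and binding, 3 of 4 tested genes were higher and 2 had an unadjusted p under 0.05. The first was Ttr, whose protein carries retinol-binding protein in plasma, with 427, 93.7, 181, 128 and 116 in hyperinsulinemic kidneys and 67.2, 70.6, 59.5, 181 and 73.7 in normal kidneys. It was high in the arrays with the most Alb of each group, hyperinsulinemic replicate 6 and normal replicate 4, and the groups overlapped through the normal one. The log2 difference of Ttr was 0.85 ± 0.33 (limma, adjusted p = 0.910), and 0.52 without hyperinsulinemic replicate 6.

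Rbp4, the plasma carrier of retinol itself, was below the filter and was high in the same arrays, with 101, 10.9, 37.8, 11.6 and 7.8 in hyperinsulinemic kidneys and 3.8, 2.5, 2.8, 38.2 and 6.1 in normal kidneys. Both carriers are made in the liver. A list of 13 liver genes, Ttr among them, was higher in the hyperinsulinemic group for 8 of 8 tested members. A gene bright in either group alone could pass the filter, so this count may owe part to it. Of the members below the filter, Ahsg peaked at 145.6 in hyperinsulinemic and 157.3 in normal arrays. Apoa1, Apoa2, Apoh and Fga, also below it, peaked higher in hyperinsulinemic arrays. The list of tested members had summed signals of 761 to 5272 in hyperinsulinemic and 544 to 1894 in normal arrays, with 0 members at 0 on any array. Its mean log2 signal was 7.61 ± 0.87 in hyperinsulinemic and 6.67 ± 0.55 in normal kidneys (exact permutation p = 0.0714, adjusted p = 0.161 over 9 marker lists), and the array with the most Alb had the highest Ttr and Rbp4 of its group in both groups. With the liver value as a covariate in limma, the log2 difference was -0.0099 for Ttr (unadjusted p = 0.942), itself a member of that list, and -0.30 for Rbp4 (unadjusted p = 0.0653). Without the array with the most Alb in each group it was 0.77 for Ttr (unadjusted p = 0.000267, adjusted p = 0.163) and 0.66 for Rbp4 (adjusted p = 0.698). Dgat1, an enzyme that can esterify retinol for storage, averaged 344 ± 15.7 in hyperinsulinemic and 312 ± 13.2 in normal kidneys, with a log2 difference of 0.13 ± 0.06 (limma, unadjusted p = 0.0396, adjusted p = 0.918). The retinol uptake receptor gene Stra6 gave log2 differences of 0.02, 0.12 and 0.13 by its tested probe sets and -0.15 by one below the filter, the fatty acid and retinoic acid carrier gene Fabp5 gave -0.03, and the storage enzyme gene Lrat, below the filter, -0.08.

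Among the enzymes of retinol and retinal, 4 of 5 tested genes were lower in hyperinsulinemic kidneys. Rdh16, a retinol dehydrogenase, had 122, 136, 149, 155 and 168 in hyperinsulinemic kidneys and 155, 163.5, 169.5, 170.0 and 186 in normal kidneys. It was below every normal array in 4 hyperinsulinemic arrays, by a narrow margin in replicate 9, and inside the normal range in replicate 10. Its log2 difference was -0.20 ± 0.09 (limma, unadjusted p = 0.0399, adjusted p = 0.918).

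The reductase genes Rdh11, Dhrs4 and Dhrs3, whose enzymes can turn retinal back into retinol, differed by -0.15, -0.11 and 0.01, and Adh5 by -0.05. Rdh7, a retinol dehydrogenase gene named after its values were seen, was below the filter, with 24.9, 24.7, 2.7, 26.6 and 15.4 in hyperinsulinemic kidneys and 2.4, 1, 1.5, 2.7 and 7.9 in normal kidneys. In 4 hyperinsulinemic arrays Rdh7 lay above every normal array, and replicate 8 tied with the second highest normal value. These signals are near the floor of the array, and the log2 difference of 0.82 ± 0.20 did not pass in the fit without a filter (limma, adjusted p = 0.691); without hyperinsulinemic replicate 8 it was 1.03 (adjusted p = 0.0229).

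Of the genes of breakdown, Por, which supplies electrons to Cyp26 enzymes among others, was the 1 tested gene and differed by -0.03 by its brightest probe set and -0.13 by the other. Cyp26a1, whose DR5 was shown above, was below the filter, with 36.0, 33.7, 43.2, 47.9 and 44.5 in hyperinsulinemic kidneys and 38.4, 47.0, 40.7, 49.9 and 48.3 in normal kidneys. The groups of Cyp26a1 overlapped and the log2 difference was -0.10 ± 0.11 (limma without a filter, adjusted p = 0.988). Cyp26b1, also below the filter, differed by 0.07 ± 0.30 and ran from 5.1 to 42.1 in hyperinsulinemic and 7.2 to 38.2 in normal arrays.

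The other retinoid receptor genes were close to 0, with log2 differences of -0.04 ± 0.12 for Rarg, 0.02 ± 0.08 for Rxrb and -0.04 ± 0.10 for Rxrg. With co-activators and co-repressors, 4 of 8 tested genes of this list were higher and 4 lower. The widest differences were those of the co-activators Crebbp (0.11), Ep300 (-0.09) and Ncoa3 (-0.12), and the co-repressor Ncor1 stood at 0.06 by its brightest probe set and 0.11 by the other; 0 of the 8 had an unadjusted p under 0.05.

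Receptors that share RXR as a partner were lower in 7 of 8 tested genes, with a median of -0.02. Nr1h4, the bile acid receptor, had 159.5, 147, 146, 148 and 141.5 in hyperinsulinemic kidneys and 183, 172, 162, 164 and 171 in normal kidneys. Every hyperinsulinemic array lay below every normal array; groups that did not overlap, in either direction, were found for 1.04% of all tested probe sets. The log2 difference of Nr1h4 was -0.18 ± 0.07 and was not called (limma, unadjusted p = 0.0181, adjusted p = 0.907). The thyroid hormone receptor gene Thra differed by -0.14 by its brightest probe set and by 0.11 by the other, which was below the filter. The orphan receptor gene Nr4a1 differed by -0.14 and the fatty acid receptor gene Ppard by 0.03 by its brightest probe set.

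Genes known to respond to retinoic acid were mixed, 4 of 10 being higher and 6 lower, with a median of -0.03 and 0 at an unadjusted p under 0.05. Ret, the receptor of the ureteric bud tip, had 121, 117, 85.0, 96.6 and 103.5 in hyperinsulinemic kidneys and 95.1, 111, 93.0, 103 and 83.9 in normal kidneys, which overlapped. Its log2 difference was 0.09 ± 0.10 (limma, adjusted p = 0.973), and its other probe sets, below the filter, gave -0.13 and -0.14. Bhlhe40, a clock and stress repressor, differed by -0.26 ± 0.14 with normal replicate 3 far above the other arrays, and by -0.13 without that array. Ecm1 differed by -0.08 and Gata6 by -0.07. In the list of retinoid-dependent branching, 4 of 5 tested genes were higher, among them Gfra1, the co-receptor of Ret, at 0.06 by its brightest probe set and -0.01 by the other, and the stromal factor Tcf21 at 0.05, while Ecm1 was lower. The median of this list was 0.05, and 0.02 with the mean of each gene's tested probe sets.

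Of the tested genes with a window, 4 held a DR5: Rarb at 0.09, Tmem87a at 0.02, Spg21 at 0.01 and Ptpn3 at 0.01. The 4 had 0 at an unadjusted p under 0.05, against 5.00% of the 6126 tested genes with a window.

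**Figure D4:**
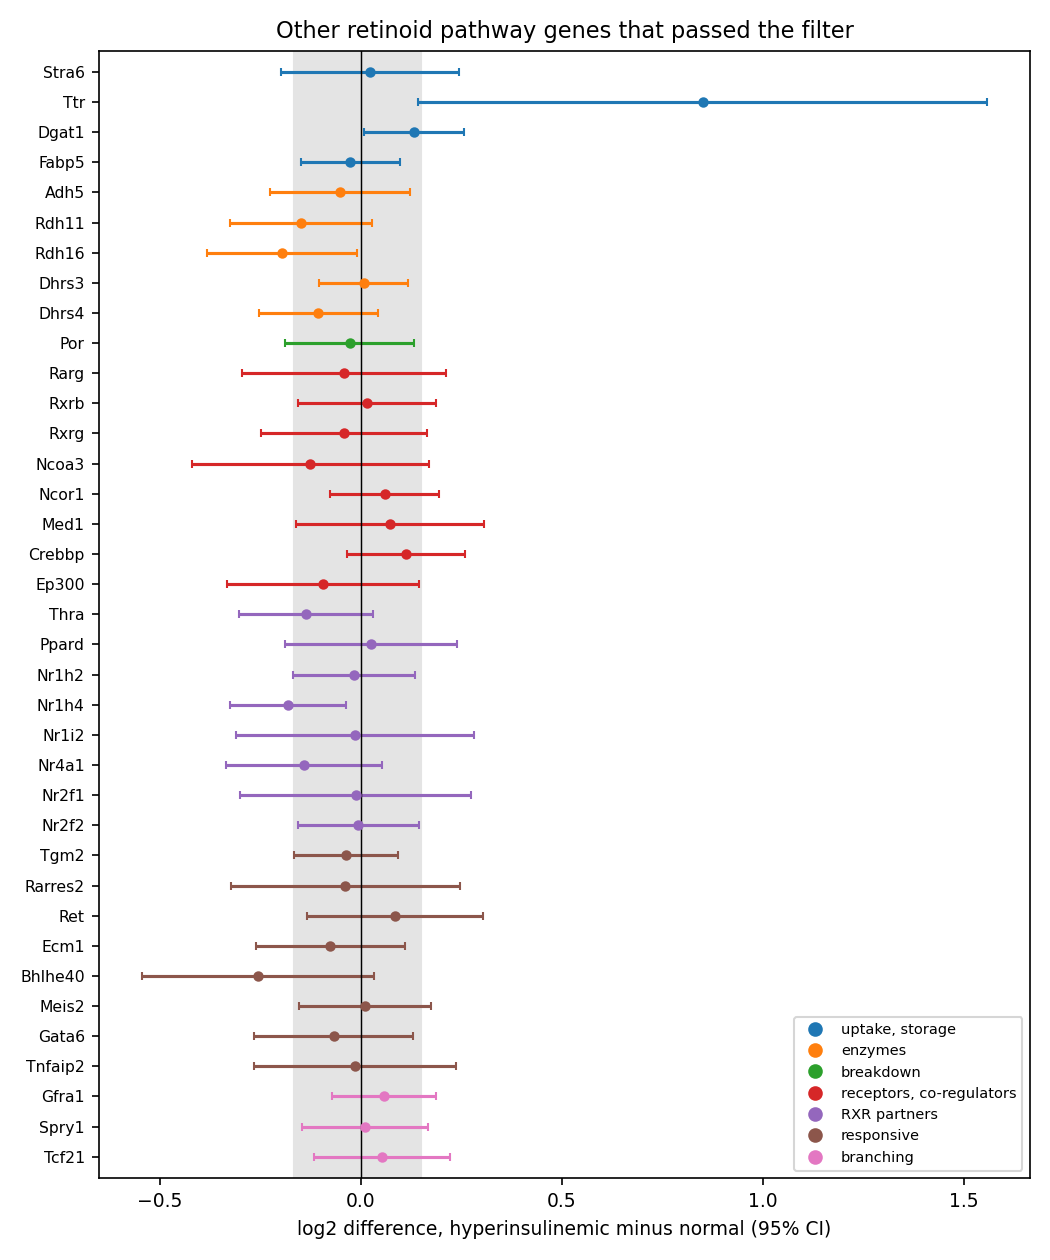
Log2 difference, hyperinsulinemic minus normal, with 95% intervals from limma for the 37 other retinoid pathway genes that passed the filter, coloured by list, with the 5th to 95th percentile of all tested probe sets in grey. Ttr, at 0.85, lies far to the right of the rest, and most intervals cross 0.

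Because Aldh1a2, Rara and Rarb are known from the stroma of the mouse embryonic kidney, a stroma list was read beside them. Its mean log2 signal was 9.46, 9.49, 9.37, 9.43 and 9.40 in hyperinsulinemic kidneys and 9.58, 9.64, 9.54, 9.66 and 9.59 in normal kidneys. Every hyperinsulinemic array lay below every normal one, a difference of -0.17 (exact permutation p = 0.00794, the smallest possible, adjusted p = 0.0714 over 9 marker lists). The marker lists were also chosen with earlier results of these data known, so their p-values serve as a description only. Of the 12 tested members 9 were lower, the summed signals were 10906 to 12354 in hyperinsulinemic and 11862 to 13415 in normal kidneys, and 0 members were at 0 on any array.

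Aldh1a2, Rara and Rarb did not follow the stroma list in sign: their log2 differences were 0.08, 0.11 and 0.09, with lower limits of -0.05, -0.15 and -0.08. Normal replicate 4, with the lowest Rara and Rarb, had the highest stroma value, 9.66. With the stroma value as a covariate in limma, the log2 differences became 0.08 for Aldh1a2, -0.49 for Rara (unadjusted p = 0.0371, adjusted p = 0.858) and -0.06 for Rarb. Since the stroma values of the groups do not overlap, that fit separates stroma from group poorly. The part of stroma in these genes' values was otherwise not tested.

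The other marker lists, for the cells in which retinoid genes could also lie, overlapped between the groups. Proximal tubule markers stood at 9.58 ± 0.05 in hyperinsulinemic and 9.66 ± 0.06 in normal kidneys (exact permutation p = 0.0714), and leukocyte markers at 7.26 ± 0.08 in hyperinsulinemic and 7.15 ± 0.08 in normal kidneys (exact permutation p = 0.0635), both with an adjusted p of 0.161 over the 9 lists. Markers of the ureteric bud and collecting duct (log2 difference 0.05), podocytes (0.04), endothelium (-0.05) and mesothelium (-0.04) gave exact permutation p-values of 0.222 to 0.690. Of the adrenal list only Fdx1 was bright enough to test, at 9.53 ± 0.11 in hyperinsulinemic and 9.64 ± 0.11 in normal kidneys (exact permutation p = 0.175). Fdx1 was bright on every array, at 671.8 to 888, also on those where Hsd3b1, Cyp21a1 and Cyp11b1 were dim. Its value therefore says little of adrenal tissue.

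**Figure D5:**
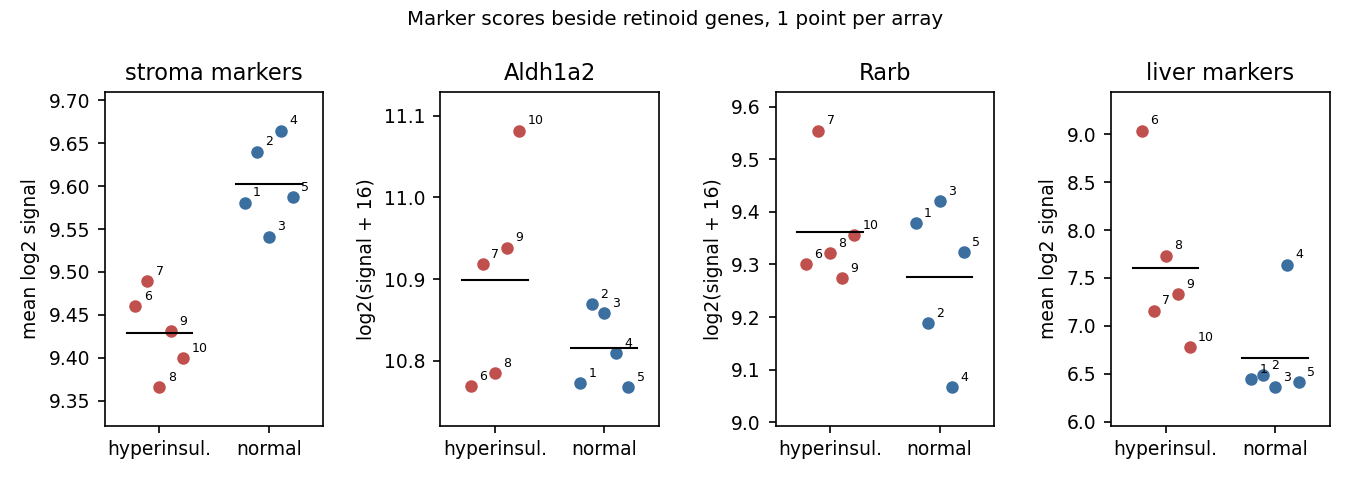
Mean log2 signal of stroma markers and of liver markers and log2(signal + 16) of Aldh1a2 and Rarb, 1 point per array with its replicate number and a line at the group mean, hyperinsulinemic left of normal in each panel. The stroma values do not overlap (at most 9.49 in hyperinsulinemic and at least 9.54 in normal arrays), the other 3 panels overlap, and hyperinsulinemic replicate 6 has the highest liver value, 9.04.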

How the data were processed

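Total RNA of 10 fetal rat kidney samples was measured on 1 array each, and the labels do not say how many kidneys or fetuses made up a sample. The deposited values are linear intensity values, 1 per probe set and array, made by the authors with MAS5, per the submitters' processing notes; MAS5 settings are not given in the sources used here. All arrays had a trimmed mean signal of 250, as scaling to a common target gives, and no further normalization was applied. Depth has no meaning for arrays, and their number limits the precision.

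Values were taken as log2(signal + 16), which understates the change of dim genes. Affymetrix controls (57 probe sets) were dropped, and dim probe sets were filtered out by asking for the 40th percentile of the array in 5 or more of the 10 arrays; 9601 probe sets of 7267 genes remained. The test was limma 3.58.1 under R 4.3.3 (intensity trend, two-sided, Benjamini-Hochberg, threshold 0.05); genes below the filter were read from a fit over all 15866 probe sets. Lists used the brightest tested probe set per gene. For marker lists, an exact permutation test (two-sided) ran over all 252 splits. The limma step was tried on simulated data. Promoter windows and gene names came from RefSeq (GRCr8), through symbols and Entrez identifiers; probes with several symbols named no gene.

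The members, lists and tests were chosen with earlier results of these data known. Named genes were all members, up to 4 genes with the smallest unadjusted p per pathway list, 13 genes set by name where they were measured, and for each member the 2 genes with the highest r. Alternatives changed the pseudocount, filter, scaling, variance model, array weights, covariates and arrays used; leaving out the array with the most Alb in each group was added after seeing the data. Plots and the promoter search used Python 3.11.15, the plots with matplotlib 3.10.9.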

Additional observations from a re-analysis of the deposited data

Results flagged for a closer look

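Each group of 5 arrays was searched for an array far from the other 4, for the retinoid genes and the pathway genes named with them. Of 82 groups checked 8 had one. The cutoff used flags about 1 in 20 groups of independent, normally distributed values. These signals are linear, come from shared arrays and include genes named for a small p. That rate is therefore no measure of chance here, and the 8 are a description only.

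Among the retinoid genes, Crabp1 stood at 100.6 in normal replicate 4, against 146.7 to 160.5 in the other normal arrays. Crabp2 stood at 295.5 in hyperinsulinemic replicate 6, against 256.8 to 265.6 in the other hyperinsulinemic arrays. Rarb stood at 736 in hyperinsulinemic replicate 7, against 603.1 to 639.

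Among the pathway genes, the plasma carriers stood apart in the arrays with the most Alb. Ttr was 426.6 in hyperinsulinemic replicate 6, against 93.7 to 181.1 in its group, and 180.7 in normal replicate 4, against 59.5 to 73.7. Rbp4 was 38.2 in normal replicate 4, against 2.5 to 6.1. Rdh7, near the floor, was 7.9 in normal replicate 5, against 1 to 2.7, and Bhlhe40 was 229.8 in normal replicate 3, against 130.3 to 156.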

How the results depend on the processing

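The 8 genes had 0 called probe sets under all 22 alternatives, and the differences of Aldh1a2, Rdh10 and Rxra kept their sign in all that were run for them. Signs turned for the other 5 genes, among them Rara, which had the largest difference of the 7 tested. Aldh1a1 was -0.034 with quantile normalization, -0.00297 with the liver covariate and -0.013 to 0.021 when each array was left out. Crabp1 was -0.33 with the stroma covariate, -0.054 without the arrays with the most Alb and -0.054 to 0.096 when each array was left out, and Crabp2 was 0.053 with the stroma covariate and -0.047 to 0.00057 when each array was left out. With the stroma covariate Rara was -0.49 and Rarb -0.058; that covariate does not overlap between the groups. The count of retinoid probe sets at an unadjusted p under 0.05, 0 in the reported fit, was 1 with the liver covariate (Aldh1a2), 1 with the stroma covariate (Rara, lower) and 1 without the filter (Rxra). Over all probe sets, 1 call became 2 with a common median, 0 without the trend, 4 with array weights, 0 with the liver or the stroma covariate, 5 without the filter, 0 without the arrays with the most Alb and 0 to 4 when each array was left out; the cause was not tested. The count at an unadjusted p under 0.05 was 828 without the filter, which tests more probe sets, and 363 to 588 when each array was left out. Of 680 values for 32 named pathway genes, 42 in 19 genes changed sign and 1 was called, Rdh7 without hyperinsulinemic replicate 8. The stricter filter kept 5 retinoid probe sets. The mean of a gene's tested probe sets gave the retinoid genes no other value, since no gene had more than 1, and moved the pathway median to -0.01. Dim signals limit what can be said of Rxra, Cyp26a1, Rbp4 and Rdh7. No paired analysis was possible because the groups share no replicate numbers.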
